A study of Mus musculus with 18 samples.

Results

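The microglia genes described here are Csf1r, Cx3cr1, P2ry12, Trem2, Tmem119, Aif1, C1qa, C1qb and C1qc, 9 of the 24015 gene rows in a table of RNA sequencing read counts from sorted mouse cortical cells. They were chosen by name as markers of microglia, with earlier results of these data known. The counts came from 12 libraries of tdTomato-positive cells, sorted by flow cytometry from dissociated cortices of mice at postnatal day 5, with about 25000 cells per sample. There were 4 libraries in each of 3 groups: Tbr1 null layer 6 (null L6), wild-type layer 5 (WT L5) and wild-type layer 6 (WT L6). The protein made from Tbr1 is a T-box transcription factor, best known in early-born cortical neurons of layer 6. The sample labels call the mutation a layer 6 null and the series design calls it constitutive, so it is called null here. All 3 groups share the tdTomato marker, the sort and a stranded, ribosome-depleted library kit. The sources used here state neither the strain and sex of the animals nor the alleles that drove tdTomato. They also leave unstated whether each replicate is its own animal, and the p-values below therefore describe the spread between libraries, part of which may be technical.

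Microglia are the resident macrophages of the brain. They enter it in the embryo from the yolk sac, arise apart from the neural lineages, and depend on the receptor encoded by Csf1r and its ligands CSF1 and IL34. In the young cortex they survey neurons through receptors for fractalkine and purine nucleotides, clear debris, and take part in removing synapses, for which the complement protein C1q and the fractalkine receptor are best known. Neurons express little of most of these genes, which is why they serve as microglia markers.

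Library totals were 41091165 to 47540669 counts in null L6, 27465597 to 39703820 in WT L5 and 32982957 to 54899002 in WT L6. The 12 neuronal markers summed to 8131 to 8333 CPM (counts scaled to a common library size, with TMM factors) in null L6, 6296 to 6348 in WT L5 and 8003 to 8373 in WT L6, so neuronal markers were at high levels in every library. Tbr1 averaged 94.7 ± 2.42 CPM in null L6 and 176 ± 6.84 in WT L6 (SD, n = 4 each), a log2 fold change of -0.89 (edgeR adjusted p = 8.53e-09), and 42.6 ± 2.37 CPM in WT L5. All layer 6 libraries belong to sequencing batch A, layer 5 replicates 1 and 2 to batch B and replicates 3 and 4 to batch C, so layer and batch cannot be told apart. Within each group the libraries formed 2 close pairs, replicates 1 with 2 and 3 with 4 in layer 6, and 1 with 3 and 2 with 4 in layer 5. The counts within a pair differed by a chi-square per degree of freedom of 8.72 and 10.4 in null L6, 1.39 and 1.33 in WT L5 and 3.21 and 5.05 in WT L6, against 22.3 to 59.4, 2.94 to 3.35 and 10.6 to 19.2 between pairs of the same 3 groups. Xist, the RNA of the inactive X chromosome, was at 0.448 and 0.458 CPM in WT L6 replicates 1 and 2 and between 262 and 299 CPM in the other layer 6 libraries, and between 39.5 and 41.1 CPM in WT L5.

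The comparison of null with WT L6 sets the mutant beside the wild type in layer 6 samples of the same batch. All 4 null libraries had the higher Xist level but only 2 of the 4 WT L6 libraries did, so genotype is partly mixed with this difference. Its part in the values was not tested beyond leaving out WT L6 replicates 1 and 2, after which 0 members were called as well. None of the 9 microglia genes passed the test between these groups (0 called by edgeR at an adjusted p under 0.05, and 0 by DESeq2), whereas 14.2% of the 14588 genes tested were called, 7.31% as higher and 6.86% as lower. Their log2 fold changes lay between -0.28 for C1qb and 0.18 for Aif1, with a median of -0.11, beside a median of 0.00034 over all genes tested. At an unadjusted edgeR p under 0.05 there was 1 member, C1qc, beside 3955 of the 14588 genes tested. Summed over the 9 genes, the level was 87.1 to 92.7 CPM in null L6 and 90.4 to 102 CPM in WT L6, and the ranges overlapped. The 95% confidence intervals of the log2 fold changes ran from -0.24 to 0.036 for Csf1r, the narrowest of the 9, and reached down to -0.67 for Tmem119 and up to 0.60 for Aif1.

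The comparison of WT L5 with WT L6 sets 2 layers side by side, both labelled wild type. The alleles that drove tdTomato in each are unstated. Xist was at an intermediate level in every WT L5 library and either low or high in WT L6, so layer is mixed with this difference too. Its part was not tested. Leaving out WT L6 replicates 1 and 2 cannot test it, since the WT L6 libraries that remain all have the high Xist level. In that setting 9 of 9 members were called as higher, and 85.0% of all genes tested were called in either direction. All 9 microglia genes were higher in layer 5 and passed the test, by 1.87-fold for C1qb to 4.95-fold for Aif1. In this comparison 85.5% of the 14927 genes tested were called, 42.2% as higher and 43.4% as lower, so a call by itself is common. The members' log2 fold changes had a median of 1.51, beside -0.010 over all genes tested, and from 4.5% of the genes tested, for Aif1, to 20.1%, for C1qb, had a larger one. Every layer 5 library lay above every WT L6 library for 9 of 9 members, as it did for 40.2% of all genes tested. The 9 genes summed to 289 to 301 CPM in WT L5 and 90.4 to 102 CPM in WT L6. With the libraries of each close pair summed, 9 of 9 members were still called. The sort for tdTomato should remove cells without the marker, and layer and batch differ together. In these bulk libraries, fewer microglia and less of these RNAs per microglial cell cannot be told apart, nor can RNA from other cells.

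Null layer 6 was also set against WT L5, where genotype, layer and batch differ together. All 9 members were lower in null L6 and passed the test, as did 41.8% of 15013 genes tested in that direction and 84.3% in either. Every null library lay below every WT L5 library for 9 of 9 members, as for 39.6% of all genes tested. The log2 fold changes lay between -1.19 for C1qb and -2.14 for Aif1, with a median of -1.67. This comparison shares its libraries with the other comparisons and adds no separate samples.

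Markers of other non-neuronal cells moved in the same direction between layers. Over all genes tested, 42.2% were called as higher and 43.4% as lower in WT L5 than in WT L6. Between null and WT L6 these shares were 7.31% and 6.86%. Of 15 astrocyte markers 14 were higher in WT L5 than in WT L6 and 1 was lower, a call that ended when any layer 5 library or any of WT L6 replicates 2, 3 or 4 was left out, and the list summed to 8072 to 8162 CPM in WT L5 and 1464 to 1625 CPM in WT L6. All 13 oligodendrocyte lineage markers were higher, with sums of 1258 to 1268 CPM in WT L5 and 285 to 299 CPM in WT L6. Of these, Mog and Enpp6 passed the filter only where WT L5 was in the fit, so they could count only as higher. Of 12 endothelial and pericyte markers tested 11 were higher, and the whole list of 14 summed to 870 to 885 CPM in WT L5 and 427 to 441 CPM in WT L6, with the haemoglobin genes Hba-a1 at 0 in both and Hbb-b1 at 0 in WT L5. Of the 12 neuronal markers 4 were higher and 7 lower. Between null and WT L6, 7 astrocyte markers were higher and 2 lower, 2 oligodendrocyte lineage markers were higher and 6 lower, and 3 endothelial and pericyte markers were lower, and with close pairs summed these counts were 1 and 0, 1 and 2, and 0. Cspg4 is on both the oligodendrocyte lineage list and the endothelial and pericyte list. It was called as higher in WT L5 and as lower in null L6, each against WT L6, and enters the counts and sums of both lists. The part of these other cell types in the values of the microglia genes was not tested.

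**Figure D1:**
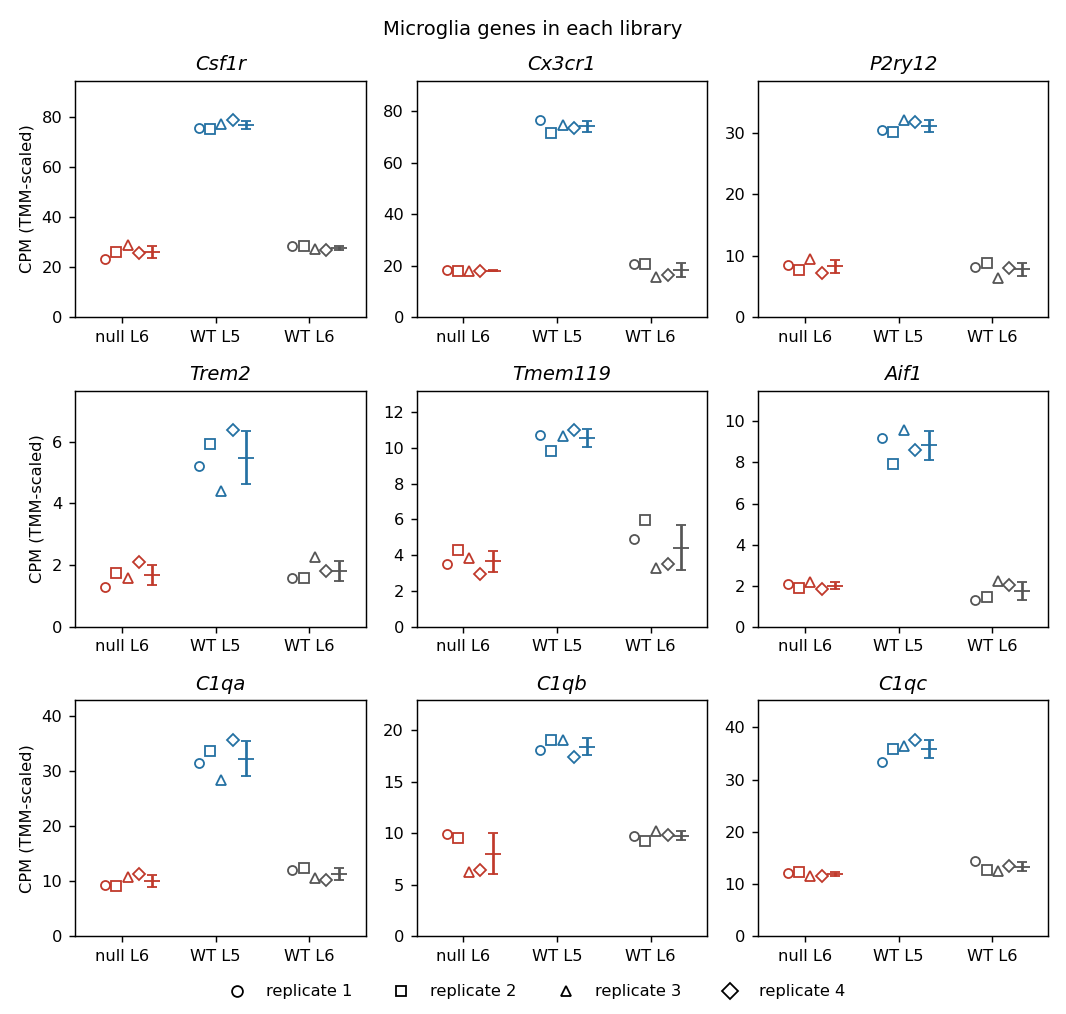
TMM-scaled CPM of each microglia gene in each library, with null L6 (red), WT L5 (blue) and WT L6 (grey) from left to right, a marker shape for each replicate number and, beside the points, the mean with SD (n = 4). In all 9 panels the 4 layer 5 libraries lie above the 8 layer 6 libraries, as for Csf1r at 75.3 to 78.7 CPM in WT L5 against 26.99 to 28.6 CPM in WT L6, while the null and WT L6 points overlap in all panels but that of C1qc.

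Csf1r encodes the receptor tyrosine kinase on which microglial survival depends. It had 23.3, 26.0, 29.1 and 25.5 CPM in null L6, 75.7, 75.3, 77.4 and 78.7 CPM in WT L5 and 28.4, 28.6, 27.3 and 26.99 CPM in WT L6, in the order of the replicate numbers. The layer 5 libraries were all high and close together, and the null libraries spread on both sides of the WT L6 libraries. The log2 fold change was -0.10 ± 0.063 between null and WT L6 (SE, edgeR adjusted p = 0.344) and 1.46 ± 0.034 between WT L5 and WT L6 (edgeR adjusted p = 1.47e-14). In RefSeq a microRNA gene, Mir6983, and a long non-coding RNA gene lie within Csf1r, and the sources used here do not state whether counting used strand.

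Cx3cr1 encodes the fractalkine receptor, through which microglia receive a signal that neurons present or shed. Its values were 18.3, 17.8, 17.9 and 18.1 CPM in null L6, 76.3, 71.6, 74.4 and 73.6 CPM in WT L5 and 20.7, 20.7, 15.7 and 16.2 CPM in WT L6. The 4 null libraries were nearly alike and lay between the 2 close pairs of WT L6, replicates 1 and 2 above and 3 and 4 below. The log2 fold change was -0.02 ± 0.089 between null and WT L6 (edgeR adjusted p = 0.912) and 2.02 ± 0.076 between WT L5 and WT L6 (edgeR adjusted p = 3.20e-12). A long non-coding RNA gene overlaps Cx3cr1 in RefSeq.

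P2ry12 encodes an ADP receptor that guides microglial processes and that microglia lose when they become reactive. It had 8.53, 7.74, 9.49 and 7.23 CPM in null L6, 30.4, 30.1, 32.0 and 31.7 CPM in WT L5 and 8.11, 8.83, 6.30 and 7.97 CPM in WT L6. The layer 6 groups overlapped and all layer 5 libraries were far above both. The log2 fold change was 0.08 ± 0.115 between null and WT L6 (edgeR adjusted p = 0.699) and 1.99 ± 0.080 between WT L5 and WT L6 (edgeR adjusted p = 7.03e-12). P2ry12 lies within Med12l, a Mediator subunit gene, so reads may be split between the 2 genes where strand was not used. Med12l averaged 24.4 ± 2.39 CPM in null L6, 35.5 ± 1.44 CPM in WT L5 and 18.9 ± 0.722 CPM in WT L6 (SD, n = 4 each), with a log2 fold change of 0.37 between null and WT L6 (edgeR adjusted p = 0.00279, and 0.0963 when the libraries of each close pair were summed) and of 0.90 between WT L5 and WT L6.

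Trem2 encodes a receptor for lipids and apolipoproteins that signals through the adapter TYROBP. It had 1.30, 1.76, 1.58 and 2.09 CPM in null L6, 5.23, 5.94, 4.41 and 6.38 CPM in WT L5 and 1.58, 1.58, 2.27 and 1.83 CPM in WT L6. These values rest on 62 to 88, 136 to 205 and 53 to 104 reads per library in the same 3 groups. The layer 5 libraries stood apart from all others, and the layer 6 groups overlapped. The log2 fold change was -0.11 ± 0.196 between null and WT L6 (edgeR adjusted p = 0.759) and 1.58 ± 0.155 between WT L5 and WT L6 (edgeR adjusted p = 2.01e-07).

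Tmem119 encodes a transmembrane protein used to tell microglia from other macrophages. It had 3.49, 4.29, 3.87 and 2.96 CPM in null L6, 10.7, 9.83, 10.6 and 11.0 CPM in WT L5 and 4.89, 5.97, 3.27 and 3.53 CPM in WT L6. The spread within WT L6 was as wide as a coefficient of variation of 28.5%, with replicates 1 and 2 above 3 and 4, and the null libraries lay in its lower part or below it, all under replicates 1 and 2. The log2 fold change was -0.26 ± 0.188 between null and WT L6 (edgeR adjusted p = 0.417) and 1.27 ± 0.148 between WT L5 and WT L6 (edgeR adjusted p = 1.42e-06). That was the largest adjusted p of a member between the layers. Leaving out WT L6 replicates 3 and 4, an alternative chosen after the data were seen, brought the Tmem119 difference between null and WT L6 to -0.56 with an adjusted p of 0.0456, and leaving out replicates 1 and 2 turned it to 0.10.

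Aif1 encodes IBA1, a calcium-binding protein of macrophages that marks microglia in tissue staining. It had 2.102, 1.87, 2.19 and 1.83 CPM in null L6, 9.20, 7.93, 9.57 and 8.59 CPM in WT L5 and 1.31, 1.46, 2.22 and 2.02 CPM in WT L6, from 77 to 100, 233 to 361 and 49 to 112 reads. WT L6 replicates 1 and 2 were low, and the null libraries lay close to replicates 3 and 4. The log2 fold change was 0.18 ± 0.193 between null and WT L6 (edgeR adjusted p = 0.609). Between WT L5 and WT L6 it was 2.31 ± 0.148 (edgeR adjusted p = 1.47e-09).

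**Figure D2:**
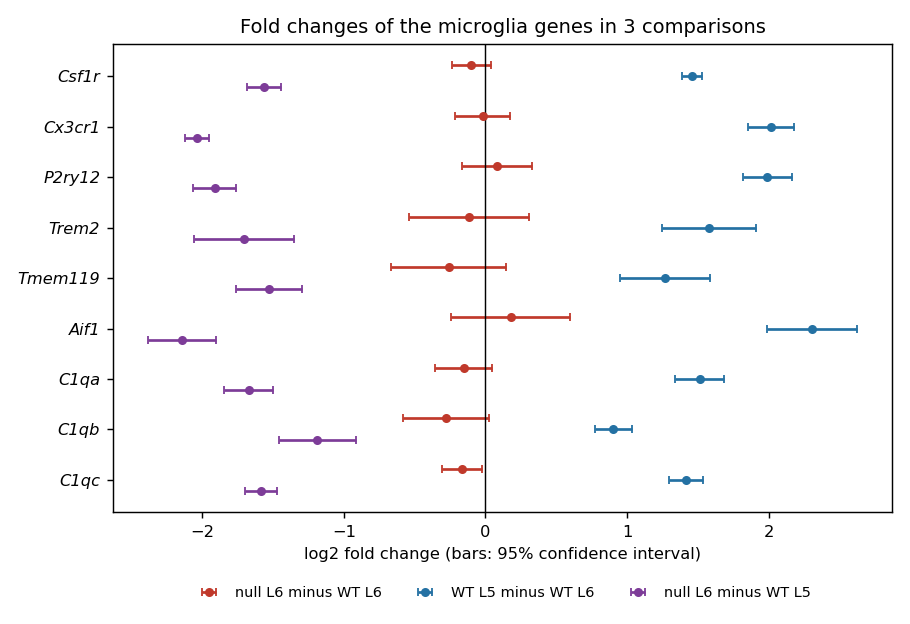
Log2 fold changes of the 9 microglia genes with 95% confidence intervals from the edgeR fits, for null L6 minus WT L6 (red), WT L5 minus WT L6 (blue) and null L6 minus WT L5 (purple). The red points lie between -0.28 and 0.18 with only the interval of C1qc below 0, the blue points between 0.90 and 2.31, and the purple points between -1.19 and -2.14.

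C1qa, C1qb and C1qc encode the 3 chains of C1q, the recognition protein of the classical complement pathway, which microglia secrete and which tags synapses and debris. The genes are neighbours on mouse chromosome 4, with C1qc between C1qb and C1qa. The promoter windows of C1qb and C1qc are shown because C1qb had the smallest fitted change of the members between the layers and C1qc is its neighbour, and that of Cx3cr1 because its fitted change was larger than either. They are RefSeq sequences of build GRCm38.p6, 5′ to 3′ along the gene, from 250 bases before to 50 bases after the start. Capitals mark GAGGAA, the core of sites for the myeloid factor PU.1, on either strand (TTCCTC when it lies on the other strand). C1qb is at chr4:136886151-136886450, C1qc at chr4:136892865-136893164 and Cx3cr1 at chr9:120068247-120068546, all on the minus strand.
C1qb: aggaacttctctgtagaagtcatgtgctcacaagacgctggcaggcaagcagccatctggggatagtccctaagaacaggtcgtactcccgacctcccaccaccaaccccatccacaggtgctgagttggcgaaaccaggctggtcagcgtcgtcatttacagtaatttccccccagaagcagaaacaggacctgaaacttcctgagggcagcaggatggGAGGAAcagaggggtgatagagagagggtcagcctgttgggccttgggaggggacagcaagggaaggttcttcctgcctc
C1qc: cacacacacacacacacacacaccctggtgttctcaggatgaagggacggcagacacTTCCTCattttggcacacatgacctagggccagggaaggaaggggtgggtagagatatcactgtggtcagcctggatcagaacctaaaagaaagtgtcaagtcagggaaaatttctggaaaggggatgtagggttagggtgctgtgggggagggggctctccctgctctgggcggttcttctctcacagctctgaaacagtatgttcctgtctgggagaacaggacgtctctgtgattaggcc
Cx3cr1: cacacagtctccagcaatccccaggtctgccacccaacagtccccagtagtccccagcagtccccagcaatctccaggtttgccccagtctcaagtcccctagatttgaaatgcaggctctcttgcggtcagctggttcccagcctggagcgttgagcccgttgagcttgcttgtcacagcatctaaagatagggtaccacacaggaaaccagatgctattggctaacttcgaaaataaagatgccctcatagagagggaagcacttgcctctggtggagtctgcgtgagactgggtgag

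The promoter table held 6 of the 9 members, C1qb, C1qc, Cx3cr1, P2ry12, Aif1 and Trem2, and C1qa, Csf1r and Tmem119 are named only. GAGGAA was present in 4 of the 6 windows, those of C1qb, C1qc, Aif1 and Trem2, and in 28.3% of 32851 promoters of the same length. The match began 30 bases before the start of C1qb, 193 before that of C1qc, 7 before that of Aif1 and 40 before that of Trem2. AGGTGTGA, a T-box motif, was in 0 of the 6 windows and in 1.28% of all promoters. Both strands were searched, neither motif holds the other, and a match describes the letters and not a bound site.

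C1qa had 9.31, 9.17, 10.7 and 11.3 CPM in null L6, 31.5, 33.6, 28.4 and 35.7 CPM in WT L5 and 12.1, 12.4, 10.5 and 10.2 CPM in WT L6. C1qb had 9.94, 9.50, 6.23 and 6.45 CPM in null L6, 18.0, 19.0, 19.0 and 17.3 CPM in WT L5 and 9.71, 9.25, 10.3 and 9.82 CPM in WT L6. C1qc had 12.1, 12.3, 11.6 and 11.6 CPM in null L6, 33.4, 35.8, 36.4 and 37.6 CPM in WT L5 and 14.5, 12.8, 12.6 and 13.4 CPM in WT L6. All 3 genes were high in every layer 5 library, and null replicates 3 and 4 were low for C1qb while replicates 1 and 2 were at the WT L6 level.

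Set against WT L6, null L6 had log2 fold changes of -0.15 ± 0.093 for C1qa (edgeR adjusted p = 0.322), -0.28 ± 0.139 for C1qb (edgeR adjusted p = 0.223) and -0.16 ± 0.065 for C1qc (edgeR adjusted p = 0.125). For C1qc each null library lay below each WT L6 library, 1 of the 9 members without overlap between these groups, whereas the groups did not overlap for 19.9% of all genes tested, 9.79% with null L6 the lower. The unadjusted p of C1qc was 0.0272 and did not hold after adjustment over all genes. The C1qb value rested on null replicates 3 and 4: without replicates 1 and 2 its log2 fold change was -0.62 (edgeR adjusted p = 0.00128), an alternative chosen after the data were seen, and without replicates 3 and 4 it was -0.0079.

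Between WT L5 and WT L6 the log2 fold changes were 1.51 ± 0.080 for C1qa (edgeR adjusted p = 1.66e-10), 0.90 ± 0.060 for C1qb (edgeR adjusted p = 2.45e-09) and 1.42 ± 0.057 for C1qc (edgeR adjusted p = 6.60e-12). The 95% confidence interval of C1qb, 0.77 to 1.03, lay below those of C1qa, 1.34 to 1.69, and C1qc, 1.30 to 1.54. The ratio of C1qb to C1qa reads, in which library size cancels, was 0.574 ± 0.0764 in WT L5 and 0.872 ± 0.114 in WT L6, and the ratio of C1qb to C1qc was 0.514 ± 0.0359 in WT L5 and 0.735 ± 0.0584 in WT L6 (SD, n = 4 each). Each layer 5 library was below each WT L6 library for both ratios. The two-sided exact permutation p was 0.0286 for each, the smallest that 4 against 4 libraries allow. After Benjamini-Hochberg adjustment over the 9 ratio comparisons made it was 0.129, so neither passed. The permutations took the 4 libraries of a group as separate samples, which the close pairs may not allow, and no test with pairs as units was made. The ratio of C1qa to C1qc was 0.903 ± 0.0821 in WT L5 and 0.850 ± 0.0854 in WT L6 (exact permutation p = 0.371, adjusted 0.588).

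The C1q ratios of null and WT L6 overlapped. C1qb to C1qa was 1.07, 1.04, 0.580 and 0.569 in null L6 and 0.801, 0.749, 0.973 and 0.964 in WT L6, with an exact permutation p of 0.629 (adjusted 0.708). C1qb to C1qc gave an exact permutation p of 0.4 (adjusted 0.588) and C1qa to C1qc one of 1.0. In null L6 the 2 close pairs were further apart in C1qb to C1qa than the layer means were.

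**Figure D3:**
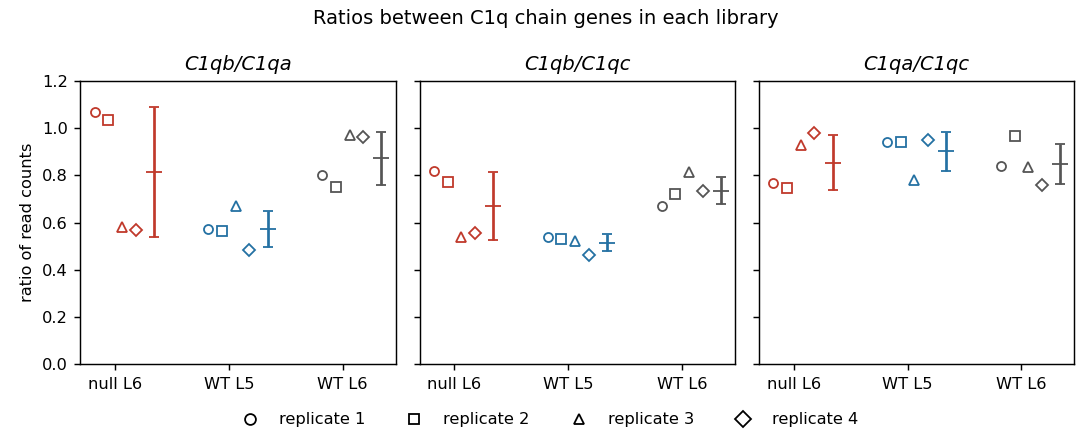
Ratios of the read counts of the C1q chain genes in each library, with null L6 (red), WT L5 (blue) and WT L6 (grey) from left to right, a marker shape for each replicate number, and the mean with SD (n = 4). For C1qb to C1qa the WT L5 libraries lie at 0.485 to 0.672 and the WT L6 libraries at 0.749 to 0.973, and the null libraries form a high pair, replicates 1 and 2, and a low pair, replicates 3 and 4.

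The log2 fold changes of the members between the layers were spread, and so were their shares of the summed level. As a share of the members' summed CPM, Cx3cr1 made up 25.2% ± 0.806 in WT L5 and 19.0% ± 1.69 in WT L6, P2ry12 10.6% ± 0.244 in WT L5 and 8.09% ± 0.808 in WT L6, and Aif1 3.01% ± 0.252 in WT L5 and 1.85% ± 0.570 in WT L6 (SD, n = 4 each), with no overlap between the groups for these 3 genes. The shares of Csf1r, C1qb and C1qc were lower in WT L5 without overlap, with C1qb at 6.27% ± 0.372 in WT L5 and 10.2% ± 1.01 in WT L6. The shares of C1qa, Tmem119 and Trem2 overlapped. In null and WT L6 the shares of all 9 members overlapped. These shares depend on gene length and on each other, and were not tested.

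Within groups, the members varied by a median coefficient of variation of 10.5% in null L6 (1.29% for Cx3cr1 to 24.4% for C1qb), 4.75% in WT L5 (2.08% to 15.7%) and 13.7% in WT L6 (2.93% for Csf1r to 28.5% for Tmem119). Counting error alone gives 2.96% to 11.7%, 2.004% to 7.55% and 2.84% to 11.6% in the same 3 groups. The 2 close pairs were separate, with no overlap, for 3 of 9 members in null L6, 4 in WT L5 and 8 in WT L6. The share of all genes with separate pairs was not computed. The pairs were themselves defined by closeness over all genes, so these counts describe the members and set them apart from no other genes. In WT L6, Csf1r, Cx3cr1, C1qa, P2ry12 and Tmem119 were higher in replicates 1 and 2, Aif1, C1qb and Trem2 were higher in replicates 3 and 4, and C1qc overlapped. Cx3cr1, for example, averaged 20.7 CPM in one WT L6 pair and 16.0 CPM in the other, and C1qb 9.72 CPM in one null pair and 6.34 CPM in the other. The directions of Cx3cr1, P2ry12 and Trem2 between null and WT L6 turned when a single WT L6 library was left out: Cx3cr1 to 0.046 without replicate 1 and 0.040 without replicate 2, P2ry12 to -0.0073 and Trem2 to 0.011 without replicate 3.

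Other genes of resting microglia were also higher in WT L5. Of 18 such genes all were higher in WT L5 than in WT L6, as were 42.2% of all genes tested, with a median log2 fold change of 1.85. Gpr34, a lysophosphatidylserine receptor, averaged 14.7 ± 0.671 CPM in WT L5 and 2.62 ± 0.107 CPM in WT L6 (SD, n = 4 each). The cysteine protease gene Ctss rose by 2.06, the Fc receptor-like gene Fcrls by 2.005 and Sparc, a matrix protein gene also expressed by vascular cells and astrocytes, by 1.03 on the log2 scale. Between null and WT L6, 0 of the 18 were called by edgeR and 0 by DESeq2, with a median of -0.13. The unadjusted edgeR p was under 0.05 for 6 of the 18, beside 3955 of the 14588 genes tested. Of all genes tested, edgeR called 7.31% as higher and 6.86% as lower between these groups. Without null replicate 4, Sparc was called as lower (-0.16, edgeR adjusted p = 0.0376), and a fit of all 12 libraries called Rnase4 (-0.28, adjusted p = 0.0441) and Ly86 (-0.58, adjusted p = 0.0363) as lower.

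Most myeloid transcription factor genes were higher in WT L5 than in WT L6, as were 42.2% of all genes tested. Of 10 tested 8 were higher in WT L5, among them the interferon regulatory factor genes Irf8 (2.06) and Irf5 (1.99) and the calcium-regulated factor gene Nfatc2 (1.72 on the log2 scale). Of the 10 only Mef2c was called between null and WT L6, lower by a log2 fold change of -0.45 (edgeR adjusted p = 2.87e-05, 687 ± 27.7 CPM in null L6 and 936 ± 67.3 CPM in WT L6), and cortical neurons express this gene strongly. Between these groups 6.86% of all genes tested were lower and 7.31% higher. A fit of all 12 libraries also called Runx1 as lower (-0.70, edgeR adjusted p = 0.0401).

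Il34, a ligand of the Csf1r product that neurons make, was higher in null L6, at 2.75, 3.06, 3.70 and 3.08 CPM in null L6, 5.64, 6.73, 4.87 and 5.86 CPM in WT L5 and 1.997, 1.82, 2.07 and 1.97 CPM in WT L6. Each null library lay between the WT L6 and the WT L5 libraries. Its log2 fold change was 0.67 ± 0.141 between null and WT L6 (edgeR adjusted p = 0.00572), a call that ended when close pairs were summed (adjusted p = 0.127), and 1.54 ± 0.126 between WT L5 and WT L6 (edgeR adjusted p = 2.57e-08). Csf1, the other ligand, averaged 12.1 ± 1.19 CPM in null L6, 16.1 ± 0.881 CPM in WT L5 and 12.8 ± 1.39 CPM in WT L6 (SD, n = 4 each), higher in WT L5 than in WT L6 by 0.34 on the log2 scale and not called between null and WT L6 (-0.07, edgeR adjusted p = 0.670).

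Cx3cl1, the neuronal ligand of the Cx3cr1 product, averaged 34.3 ± 2.38 CPM in null L6, 53.0 ± 1.24 CPM in WT L5 and 39.0 ± 2.91 CPM in WT L6. It was 0.44 higher on the log2 scale in WT L5 than in WT L6, and its difference of -0.19 between null and WT L6 was not called by edgeR (adjusted p = 0.0684) but was called by DESeq2 (adjusted p = 0.0401) and by edgeR without null replicate 3 (adjusted p = 0.0394) or with all 12 libraries in the fit (adjusted p = 0.0257). Tyrobp, the adapter gene of TREM2, had log2 fold changes of 1.66 ± 0.099 between WT L5 and WT L6 and -0.04 ± 0.169 between null and WT L6 (edgeR adjusted p = 0.910). Of 12 signalling partners tested, with Hcst too low to test, 11 were higher in WT L5 than in WT L6 (median log2 fold change 1.13), including Apoe (3.15), a TREM2 ligand gene that astrocytes express, and the phosphatase gene Inpp5d (2.21). Tgfbr1, a receptor gene for TGF-beta, was lower, by -1.30. Over all genes tested, 42.2% were higher and 43.4% lower in WT L5. Between null and WT L6, Il34 was higher and Tgfbr1 was lower by -0.44 (edgeR adjusted p = 0.000230, and 0.0503 with close pairs summed). Of all genes tested, 7.31% were higher and 6.86% lower between these groups.

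The rest of the complement pathway was less uniform than the C1q genes. Of 20 genes tested between WT L5 and WT L6, 13 were higher and 3, Cr1l, Cd55 and Serping1, were lower, with a median of 0.96. Over all genes tested, 42.2% were higher and 43.4% lower. Of the 13, C3 passed the filter only where WT L5 was in the fit, so it could count only as higher. C4b, the complement protein that C1q activation leads to, averaged 10.6 ± 0.759 CPM in WT L5 and 1.004 ± 0.356 CPM in WT L6 (log2 fold change 3.37). Itgam, a subunit gene of complement receptor CR3, was higher by 2.51 and Cd93, a receptor gene also of endothelial cells, by 1.59 on the log2 scale. Between null and WT L6, 2 of 19 tested were higher and 2 lower, beside 7.31% and 6.86% of all genes tested. Csmd2 (0.45, edgeR adjusted p = 5.32e-05) and Csmd3 (-0.41, edgeR adjusted p = 5.46e-05), which encode neuronal membrane proteins with complement-control domains, kept their calls with close pairs summed. C4b (-1.44, adjusted p = 0.00623) lost its call there (edgeR adjusted p = 0.102), as did Cd59a (1.09, adjusted p = 0.0270 and then 0.240), whose call also ended when any of 5 libraries was left out (null replicates 1 or 2, WT L6 replicates 1, 2 or 4).

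Genes of activated or developmental microglia were mostly higher in WT L5, 13 of 15 tested, with a median of 0.70, beside 42.2% of all genes tested. Of the 13, Gpnmb and Clec7a passed the filter only where WT L5 was in the fit, so they could count only as higher. Axl, a receptor gene for apoptotic cells, rose by 1.89 and the tetraspanin gene Cd9 by 1.15 on the log2 scale, and the cathepsin genes Ctsd and Ctsl by 0.46 and 0.42. Ctsb was lower by -0.09, and Lpl by -0.61 (edgeR adjusted p = 0.0449), a call that ended when any of 6 libraries was left out (all layer 5 replicates, WT L6 replicates 3 or 4). In null against WT L6, 4 of 13 tested were lower, Igf1, Ctsb, Cd68 and Spp1, and 0 were higher. Over all genes tested, 6.86% were lower and 7.31% higher. Igf1, a growth factor gene of microglia and of neurons, had 6.89, 6.07, 6.38 and 6.45 CPM in null L6 and 11.3, 8.72, 9.12 and 9.94 CPM in WT L6, with no overlap and a log2 fold change of -0.60 ± 0.093 (edgeR adjusted p = 0.000703, and 0.0272 with close pairs summed). The lysosomal genes Ctsb (-0.17) and Cd68 (-0.57) and the osteopontin gene Spp1 (-0.70) lost their calls when close pairs were summed (edgeR adjusted p = 0.219, 0.213 and 0.332). Cd68 also lost it without any of 5 single libraries (null replicates 1 or 3, WT L6 replicates 1, 2 or 3, edgeR adjusted p up to 0.0710), and Spp1 without any of 5 (null replicates 1, 2 or 3, WT L6 replicates 1 or 2, up to 0.138). DESeq2 did not call Spp1.

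Phagocyte receptor genes were mostly higher in WT L5. Of 15 tested 13 were higher in WT L5 and 0 lower, beside 42.2% and 43.4% of all genes tested, with a median of 1.78. Cd53, a leukocyte tetraspanin gene, averaged 9.13 ± 0.0956 CPM in WT L5 and 2.49 ± 0.282 CPM in WT L6, and Emr1, the F4/80 antigen gene, 23.1 ± 1.14 CPM in WT L5 and 6.75 ± 1.33 CPM in WT L6 (SD, n = 4 each). Only Fcgr2b, the inhibitory Fc receptor gene, was called between null and WT L6, lower by -0.81 (edgeR adjusted p = 0.0104, and 0.167 with close pairs summed). Between these groups 6.86% of all genes tested were lower and 7.31% higher. A fit of all 12 libraries also called Ptprc as lower (-0.44, edgeR adjusted p = 0.0372) and another gene of this list as higher.

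**Figure D4:**
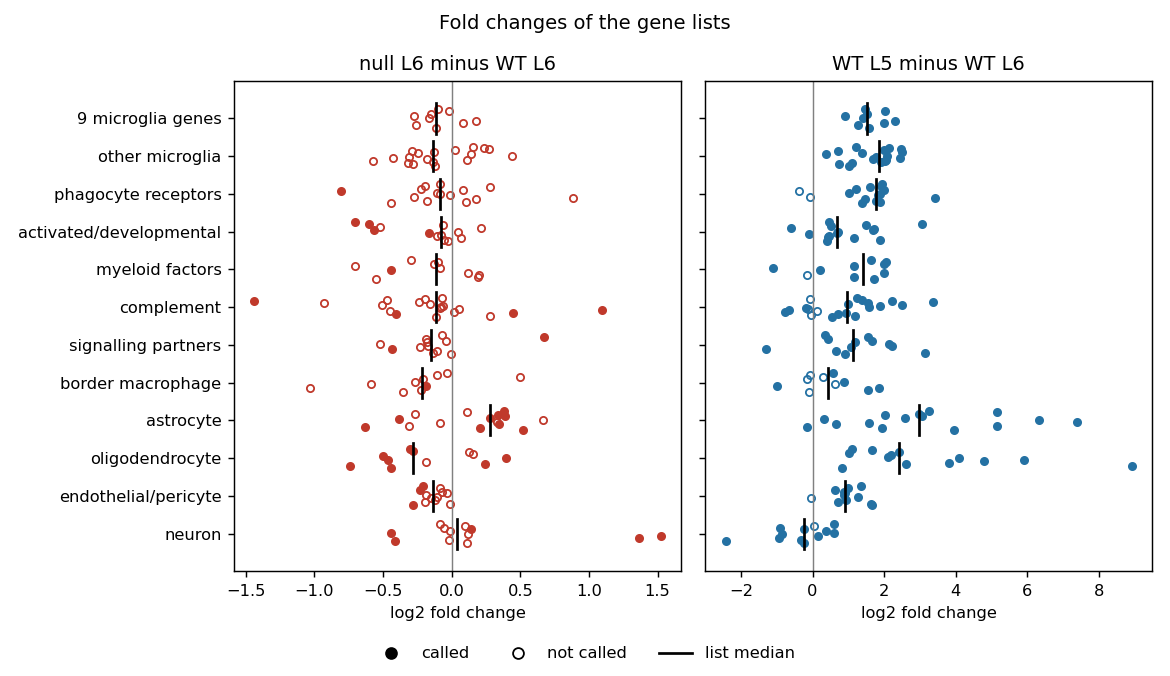
Log2 fold changes of each tested gene by list, for null L6 minus WT L6 (left) and WT L5 minus WT L6 (right), with filled points for genes called at an adjusted p under 0.05, open points for the others and a bar at the list median. The horizontal scales differ. On the right the medians are 1.51 for the 9 microglia genes, 1.85 for the other microglia genes, 2.97 for astrocyte and -0.24 for neuronal markers, and on the left those of the 9 microglia genes and of the other microglia genes are -0.11 and -0.13.

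The genes whose profile over the 12 libraries was most like the mean profile of the 9 members were on none of the microglia lists. Among 14196 genes ranked by the root mean square difference of centred log2 CPM profiles, the nearest were Fbxo41 (0.0367), Ttbk1 (0.0400) and Fgfr3 (0.0405), followed by Tmcc2, Tln2, Tnfrsf19, Rpsa, Mcf2l and AI854517. Of these 9 only Fgfr3 is on a list used here, that of astrocytes. Fbxo41 averaged 92.4 CPM in null L6, 306 CPM in WT L5 and 99.2 CPM in WT L6. The members themselves lay at 0.0897 (Csf1r) to 0.364 (Aif1) from their mean, so a profile of this shape was not particular to microglia genes. The libraries share their groups and batches, and no test was made.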

How the data were processed

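RNA was measured in 12 libraries of sorted cells, 4 per group, grouped by the titles in the labels. The authors deposited raw read counts for 24015 genes, and 0 columns had no sample. For these, the submitters' processing notes name mm9 as the build, with the tools STAR (2.5.2b), HTSeq and bedtools. The sources used here give neither the annotation nor the strand option. Whole-number scores for 14567 genes, which the authors deposited as a normalized table without further description in the sources used here, served to compare ranges only. Peak lists were not used.

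Each pair of groups was fitted alone in edgeR 4.0.16 (R 4.3.3), with TMM factors, filterByExpr by group, no covariates and the quasi-likelihood test. A gene was called at an adjusted p under 0.05 (Benjamini-Hochberg, over all genes tested). Log2 CPM used for profiles had a prior count of 2. DESeq2 1.42.0, RLE and upper-quartile scaling, no filter, a fit of all 12 libraries, the replicate number as a block, summed close pairs, single batches of layer 5 and leaving out each library were alternatives. The test was checked on simulated counts. Library totals of 27465597 to 54899002 set the precision, and counting error does not cover differences between animals. The close pairs differed by more than sampling noise, which does not show that they are separate samples. All libraries were kept in n, and fits with pairs summed are an alternative.

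The members, the 13 other gene lists and the tests were chosen with earlier results of these data known. Named genes were the 9 members, up to 4 genes per other list with the smallest adjusted p in a comparison, Csf1, Il34, Cx3cl1 and Tyrobp, and the 10 nearest profiles without predicted genes; 2 of these genes are not reported here. Med12l was added because it overlaps P2ry12, Xist because it separates the close pairs of WT L6, and Lpl, Ctsb, Cr1l, Cd55 and Serping1 because they are the exceptions in short counts. These were chosen after their values were seen. Gene neighbours and promoters are from RefSeq, GRCm38.p6.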

Additional observations from a re-analysis of the deposited data

How the results depend on the processing

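In 19 alternatives for null against WT L6, the number of members called stayed at 0, except that it was 1, C1qb, without null replicates 1 and 2, and 1, Tmem119, without WT L6 replicates 3 and 4. Between WT L5 and WT L6, and between null L6 and WT L5, 9 of 9 were called in the same direction in 21 alternatives each. Genes called between null and WT L6 numbered 2068, but 479 with close pairs summed, where fewer libraries enter the fit, and 1632 to 1838 when 1 library was left out (12520 to 12850 and 12380 to 12688 in the other comparisons).

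Replicate numbers did not pair the samples: deviations of same-numbered libraries correlated between -0.081 and 0.024. With the replicate number as a block, 1526 genes were called between null and WT L6, 12675 between the layers and 12551 between null L6 and WT L5, with 0, 9 and 9 members.

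Signs turned between null and WT L6, and the cause was not tested. With 1 library left out in turn, Cx3cr1 ranged from -0.088 to 0.046 (above 0 without WT L6 replicates 1 or 2), P2ry12 from -0.0073 to 0.14 and Trem2 from -0.23 to 0.011 (both turned without WT L6 replicate 3), Tyrobp from -0.17 to 0.10 (above 0 without replicate 1 of either group) and Csf1 from -0.14 to 0.00076 (above 0 without WT L6 replicate 2). Without null replicates 1 and 2 the signs that turned were Trem2 (0.013), Csf1 (0.015) and Tyrobp (0.21). Without WT L6 replicates 1 and 2 they were Cx3cr1 (0.18), Aif1 (-0.088), Tmem119 (0.10), Csf1 (0.033) and Tyrobp (0.10), and without replicates 3 and 4 P2ry12 (-0.036) and Trem2 (0.087). Between WT L5 and WT L6, Lpl turned to 0.22 without WT L6 replicates 3 and 4. Of the other lists, 1 phagocyte receptor gene was called as higher in null than in WT L6 without null replicate 3 or WT L6 replicate 1 and in the fit of all 12 libraries, 1 was lower in WT L5 than in WT L6 without WT L5 replicate 2, and 1 gene of resting microglia was higher in null than in WT L6 without WT L6 replicate 2.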

Other observations

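Markers of other immune cells included genes that were higher in WT L5. Over all genes tested, 42.2% were called as higher and 43.4% as lower in WT L5 than in WT L6. Between null and WT L6 these shares were 7.31% and 6.86%. Of 10 genes of macrophages at the borders of the brain, 4 were higher in WT L5 than in WT L6, Mrc1 (0.56), Cbr2, Ccl24 (1.86) and Stab1 (1.55), and 1, F13a1, was lower (-0.98), with a median log2 fold change of 0.42. These genes summed to 87.1 to 99.3 CPM in null L6, 160 to 168 CPM in WT L5 and 102 to 105 CPM in WT L6. In null against WT L6 only F13a1 was called, lower by -0.19 (edgeR adjusted p = 0.0329), and the call ended without any of 5 single libraries (null replicates 1 or 2, WT L6 replicates 2, 3 or 4, adjusted p up to 0.0927). The 14 markers of other blood leukocytes summed to 0.609 to 0.925 CPM in null L6, 2.88 to 4.18 CPM in WT L5 and 1.31 to 1.52 CPM in WT L6, and Cd3e and Nkg7 were at 0 in all 3 groups. Only 4 of them, S100a8, S100a9, Ngp and Cd79b, were tested between WT L5 and WT L6, with a median log2 fold change of 1.97. These 4 passed the filter only where WT L5 was in the fit. Their higher level in WT L5 was therefore set by the filter and is no separate result. Of 10 genes of dividing cells, Mki67, Top2a and Pcna were higher in null L6 than in WT L6, with 0 called when close pairs were summed, and 4 were higher and 3 lower in WT L5 than in WT L6, or 1 and 2 with close pairs summed.

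In the authors' deposited table of whole-number scores, all 9 members were present and every WT L5 score was above every layer 6 score for 9 of 9. The share of all scored genes that separate this way was not computed. In the read counts, every WT L5 library lay above every WT L6 library for 40.2% of genes tested, and above every null library for 39.6%. Csf1r scored 18 to 23 in null L6, 58 to 62 in WT L5 and 21 to 23 in WT L6, and C1qb 7 to 11 in null L6, 18 to 20 in WT L5 and 10 to 11 in WT L6.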
